A study of Mus musculus with 12 samples.

Results

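The hippocampal transcriptome of Tg2576 mice given CM-695 was compared with that of Tg2576 mice given CM-414, a pair of code-named compounds that each inhibit histone deacetylases (HDACs) together with a phosphodiesterase (PDE). The comparison holds 3 arrays titled for CM-695 and 3 titled for CM-414, of the 12 arrays of the series, and 35326 of 41345 probe sets, those with a log2 value over 4 on all 6 arrays. In Tg2576 mice a hamster prion promoter drives human APP, the amyloid precursor, in its Swedish mutant form. All mice were transgenic and 16 to 18 months old. The labels give their line as B6.Cg-Tg(APPswe)E1-2Dbo/J, whereas the study's methods describe females on a C57BL/6/SJL background. Treatment lasted 4 weeks, and the hippocampi were taken 24 h after it ended. The study's methods place fear conditioning and the Morris water maze within the treatment for CM-695 and vehicle mice. They do not describe the CM-414 mice. CM-695 was given at 40 mg/kg into the peritoneum. For CM-414 the sources used here give no dose, so compound and dose cannot be told apart in any difference below. The other 6 arrays, 3 of vehicle mice and 3 of mice given SAHA (vorinostat, an HDAC inhibitor) with tadalafil (a PDE5 inhibitor), entered the fit to share the estimate of the spread and are quoted for their levels only.

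HDACs remove acetyl groups from proteins. The class I enzymes work mainly on histones in the nucleus, while HDAC6 is largely cytoplasmic and acts on α-tubulin and on the chaperone Hsp90. PDE5 and PDE9 both break down cGMP, the second messenger made by guanylate cyclases. The study describes CM-414 as a moderate inhibitor of class I HDACs and a stronger one of HDAC6 and PDE5, and CM-695 as an inhibitor of PDE9 that favours HDAC6 over class I. The compounds therefore differ in the phosphodiesterase they reach and in their balance between nuclear and cytoplasmic deacetylases, and this was the 1 pair of compounds compared here.

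Against CM-414, the hippocampus of CM-695 mice carried lower levels of a set of glucocorticoid-induced genes (Sgk1, Cdkn1a, Pdk4, Sult1a1, Mt2, Plin4 and Lcn2) and of the astrocyte enzyme Etnppl. It carried higher levels of oligodendrocyte lineage genes (Olig2, Olig1, Gpr17, C1ql1, Ugt8a and Fa2h), of endoplasmic reticulum (ER) folding genes (Sdf2l1, Xbp1, Calr) and of the tubulins Tubb3 and Tubb5. The largest of these differences were about the size of a doubling in linear intensity, with 2.34-fold for Etnppl and 2.08-fold for Lcn2. All of them passed an unadjusted limma p under 0.01, the threshold of the study's methods, and none passed adjustment for the number of probe sets tested.

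In limma, 393 of 35326 probe sets (1.11%) had an unadjusted p under 0.01, where 353.3 would be called by chance. Of these, 145 were higher with CM-695 (0.41%) and 248 lower (0.702%). With the looser threshold of 0.05, the unadjusted p called 2020 probe sets against 1766.3 by chance. After Benjamini-Hochberg adjustment 0 probe sets were under 0.05, and the smallest adjusted p was 0.463. The split of directions moved with the scaling of the arrays, from 36.9% higher in the deposited values to 49.5% (213 higher, 217 lower) when quantile normalization was repeated and 48.8% (189 and 198) when each array was centred on its median. Among the 393, 180 probe sets were not listed with a gene in the annotation used (47 higher, 133 lower) and 24 were listed with several genes, so neither kind is named here. With 1 probe set per gene, the brightest, 86 of 20109 genes were higher (0.428%) and 97 lower (0.482%). The median difference over these genes was 0.003, and 51.1% of the differences were positive. The 3 CM-695 arrays lay wholly above the 3 CM-414 arrays for 1503 genes (7.47%) and wholly below them for 1347 (6.7%). Nearly all genes with an unadjusted p under 0.01 had no overlap, and the largest were also chosen by it. Lack of overlap is therefore no further support for a called gene. The number of arrays limits the precision: the median standard error of a log2 difference was 0.13, and the median 95% interval reached 0.28 to either side.

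On the first principal component of the 12 arrays (22.7% of the variance), 3 arrays stood apart at the high end. These were CM-695 replicate 3 (score 35.6), vehicle replicate 2 (40.3) and SAHA and tadalafil replicate 1 (24.1). The other 9 were themselves spread, from -30.3 (SAHA and tadalafil replicate 2) to 5.5 (CM-695 replicate 2). Correlations between the 6 arrays of this comparison ranged from 0.982 to 0.991 across probe sets. Markers of neighbouring tissue also differed between single arrays. The mean deviation of 14 striatal genes was 0.36 on CM-695 replicate 3 and between -0.06 and 0.01 on the other 5 arrays, and that of 21 choroid plexus and ependymal genes ran from -0.63 (CM-414 replicate 1) to 0.53 (CM-695 replicate 3). The hippocampal markers Prox1, a factor of dentate granule cells, and Wfs1, a marker of CA1 pyramidal cells, lay between 8.84 and 10.03 on all 12 arrays, and Xist, which is transcribed in females, between 10.93 and 11.32. Differences of at least 0.1 in size that moved by over 1.5 times without CM-695 replicate 3 are given both ways for the named genes.

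**Figure D1:**
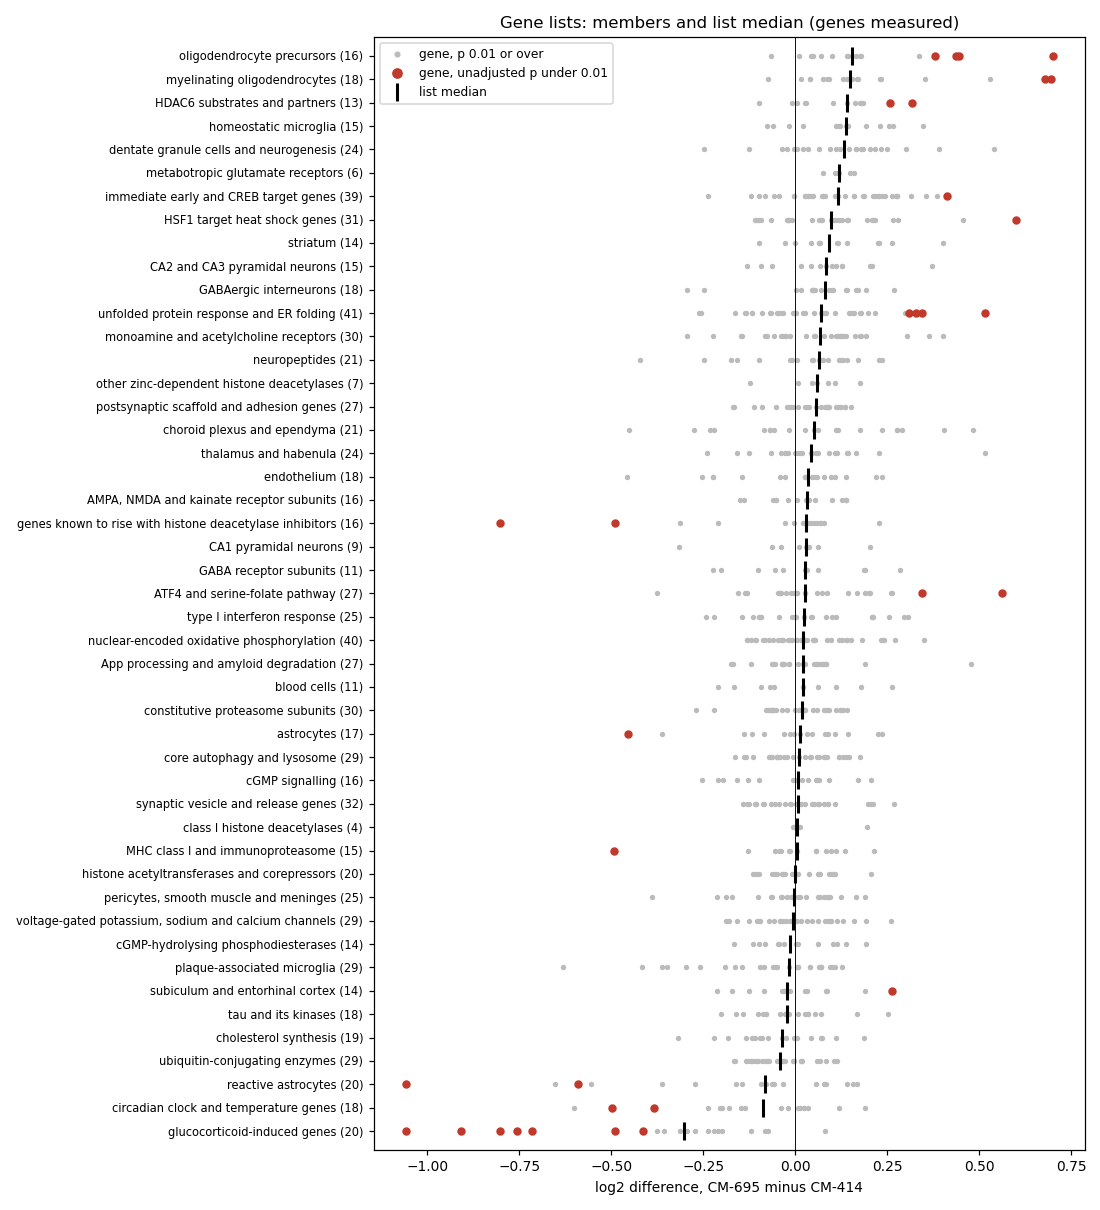
Log2 difference of each measured list gene (horizontal axis, CM-695 minus CM-414) in 47 gene lists (vertical axis, genes measured in brackets). Red points had an unadjusted limma p under 0.01 and the black mark is the list median. Glucocorticoid-induced genes have the lowest median (-0.302) and oligodendrocyte precursor genes the highest (0.155).

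Glucocorticoids, the adrenal steroids of the stress response, act through a receptor that enters the nucleus and raises a characteristic set of genes in many cell types. Of 20 such genes, all of them measured, 7 were lower with CM-695 at the unadjusted threshold and 0 higher, against 0.482% and 0.428% of all genes. The lists were chosen with earlier results of these data known, so this contrast is a description and not a test. The list median was -0.302, where the median over all genes was 0.003, and 19 of the 20 differences were negative. For 13 genes the 3 CM-695 arrays lay wholly below the 3 CM-414 arrays (6.7% of all genes did). By array, the list deviated on average by 0.24, 0.13 and 0.38 with CM-414 (replicates 1 to 3) and by -0.11, -0.18 and -0.13 with CM-695. It was -0.11, -0.21 and -0.10 on the vehicle arrays and 0.16, 0.02 and -0.09 on the SAHA and tadalafil arrays. The vehicle arrays thus spanned the CM-695 level, and the CM-414 arrays lay above both groups. The count of lower genes was 6 without CM-695 replicate 3 (list median -0.315) and 4 without CM-414 replicate 3 (-0.258), the array with the highest level.

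Sgk1, a kinase named for its induction by serum and glucocorticoids that regulates ion channels, had log2 values of 9.42, 9.60 and 9.55 with CM-414 and 8.67, 8.48 and 8.71 with CM-695. The groups did not overlap, and the vehicle arrays (8.78, 8.17 and 8.57) covered the CM-695 range. The log2 difference was -0.91 (standard error 0.14, 95% interval -1.21 to -0.60, adjusted p = 0.463), a 1.88-fold lower intensity. Sgk1 had a p under 0.01 in all 19 other settings of the fit. In RefSeq, 1 of the 6 Sgk1 start sites (GRCm38.p6) has a match to the core of a glucocorticoid response element (GNACA and TGTNC, 3 bases apart) within the 250 bases before it. That window is printed here because Sgk1 had the smallest p of the list; the matching letters are in capitals.

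Sgk1 (chr10:21993640-21993889, plus strand): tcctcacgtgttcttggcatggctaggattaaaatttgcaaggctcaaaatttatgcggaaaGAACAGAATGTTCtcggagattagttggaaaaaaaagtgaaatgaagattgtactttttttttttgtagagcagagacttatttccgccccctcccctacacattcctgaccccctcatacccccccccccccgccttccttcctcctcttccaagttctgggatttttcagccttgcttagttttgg

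Searched on both strands, this motif occurs in 127 of 32851 promoter windows of that length (0.387%), and among the 19 list genes with a window also in those of Map3k6 and Mt1. A match in letters is not evidence of binding. Map3k6, a kinase of stress signalling, and Mt1, a metallothionein, had log2 differences of -0.08 (95% interval -0.41 to 0.24) and -0.21 (-0.43 to 0.01).

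Cdkn1a encodes p21, an inhibitor of the cell cycle that is also a textbook example of a gene raised by HDAC inhibitors in cultured cells. It was at 8.62, 8.23 and 8.97 with CM-414 and at 7.78, 7.77 and 7.86 with CM-695. Every CM-695 array was below every CM-414 array, and the vehicle arrays (8.12 to 8.14) lay between them. The log2 difference was -0.80 (standard error 0.16, adjusted p = 0.62). Pdk4, a kinase that switches off pyruvate dehydrogenase, was at 8.12, 8.22 and 8.70 with CM-414 and at 7.76, 7.73 and 7.42 with CM-695. Its difference was -0.71 (standard error 0.15, adjusted p = 0.634), and the vehicle arrays (7.47 to 7.60) fell inside the CM-695 range. Sult1a1, a sulfotransferase of phenols, was at 8.23, 7.90 and 8.48 against 7.51, 7.20 and 7.63, a difference of -0.76 (standard error 0.19, adjusted p = 0.709). Its unadjusted limma p was no longer under 0.01 without CM-414 replicate 3 (difference -0.62) or without CM-695 replicate 2 (-0.63).

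Lcn2, a secreted protein that binds iron-carrying siderophores and rises in inflammation, was at 7.36, 7.11 and 7.55 with CM-414 and at 6.53, 6.22 and 6.10 with CM-695. The groups were far apart, with a difference of -1.06 (standard error 0.27, adjusted p = 0.71), while the SAHA and tadalafil arrays ran from 6.49 to 7.79. Its unadjusted p was no longer under 0.01 without CM-414 replicate 3 (difference -0.95) or without CM-695 replicate 3 (-0.97). Mt2, a metallothionein that binds zinc and copper, differed by -0.49 (standard error 0.11, adjusted p = 0.653). Plin4, a coat protein of lipid droplets, differed by -0.41 (standard error 0.12, adjusted p = 0.783) and was chosen after its values were seen. Some of the best known glucocorticoid targets moved less and did not pass the threshold. Fkbp5, an Hsp90 co-chaperone that dampens the receptor, was at 8.13, 8.29 and 8.22 against 7.96, 7.89 and 7.99, without overlap (difference -0.27, 95% interval -0.51 to -0.03). Tsc22d3, the leucine zipper protein GILZ, had a difference of -0.20 (-0.41 to 0.01) and Per1, a clock gene with a glucocorticoid element in mammals, one of -0.24 (-0.50 to 0.03). Zbtb16, Klf9, Arrdc2 and Ddit4 had differences between -0.38 and -0.29 (Zbtb16 -0.17 without CM-695 replicate 3), and Dusp1, a phosphatase of MAP kinases, was the exception at 0.08 (-0.19 to 0.35).

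**Figure D2:**
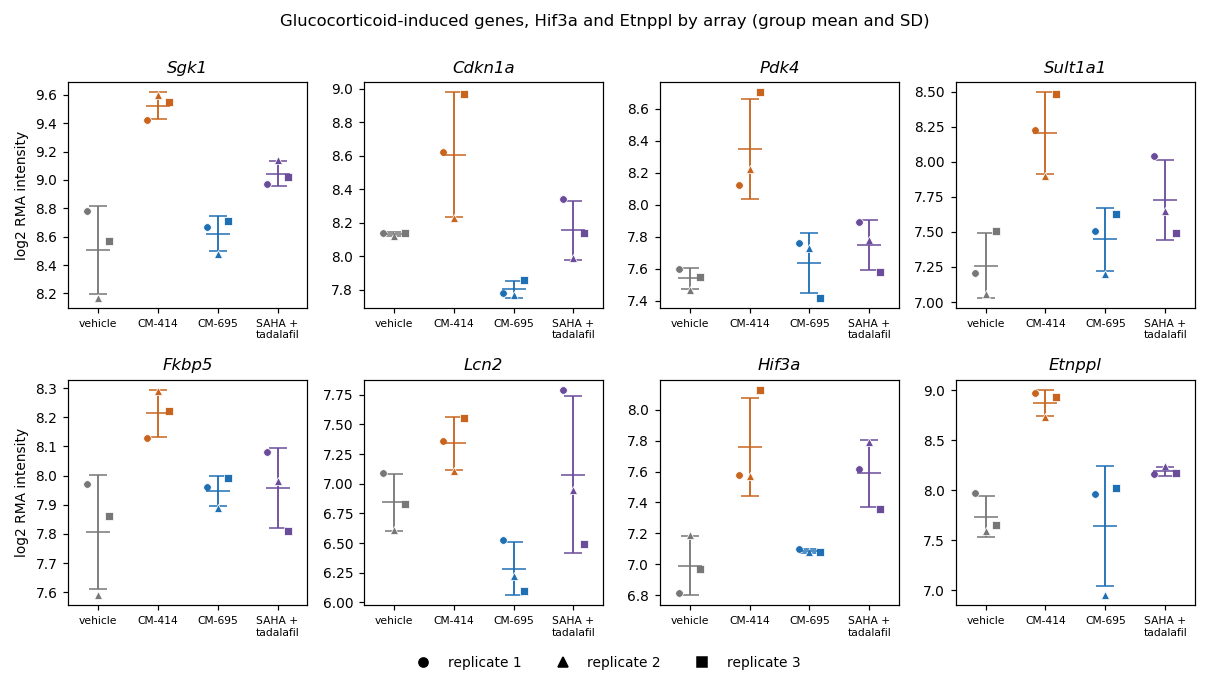
Log2 RMA intensity (vertical axis) of 8 genes on the 12 arrays by treatment (horizontal axis); symbols mark the replicate and bars the group mean and SD of 3 arrays. For Sgk1 the CM-414 arrays lie between 9.42 and 9.60 and the CM-695 arrays between 8.48 and 8.71.

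Genes outside the list were lower as well. Etnppl, an astrocyte enzyme that breaks down phosphoethanolamine, was at 8.97, 8.73 and 8.93 with CM-414 and at 7.96, 6.95 and 8.02 with CM-695, and the vehicle arrays (7.59 to 7.97) sat at the CM-695 level. The difference was -1.23 (standard error 0.23, adjusted p = 0.577), and over the 6 arrays left out in turn it ran from -1.42 (without CM-695 replicate 3) to -0.88 (without CM-695 replicate 2, the lowest array). Hif3a, a hypoxia-inducible factor subunit, was at 7.58, 7.57 and 8.13 against 7.10, 7.08 and 7.08, again without overlap (difference -0.68, standard error 0.16, adjusted p = 0.709). Zfand4, which carries an AN1-type zinc finger, differed by -0.59 (standard error 0.10, adjusted p = 0.477), Fbln5, a protein of elastic fibres, by -0.59 (standard error 0.12, adjusted p = 0.62), and the chemokine Ccl17 by -0.58 (standard error 0.17, adjusted p = 0.803). For Zfand4 and Hif3a the SAHA and tadalafil arrays (6.55 to 6.73 and 7.36 to 7.79) lay above all 3 CM-695 arrays.

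Cdkn1a and Mt2 also belong to a list of genes known to rise with HDAC inhibitors. Of its 16 measured genes, these were the 2 lower with CM-695 and 0 were higher, against 0.482% and 0.428% of all genes. Over the list, 10 of the 16 differences were positive, with a median of 0.030 and a mean of -0.073. Klf9 and Mt1, the next lowest members, had differences of -0.31 and -0.21, and Mt3, a metallothionein of the brain, had the highest at 0.23. Bdnf, the neurotrophin that HDAC inhibition raises in neurons, had a difference of 0.03 (95% interval -0.33 to 0.39). Slc1a2, the main glutamate transporter of astrocytes, had one of -0.00 (-0.20 to 0.19).

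Oligodendrocytes make myelin, and they arise from precursors that carry the transcription factors Olig1, Olig2 and Sox10. All 16 precursor genes of the list were measured. Of these, 4 were higher with CM-695 and 0 lower, against 0.428% and 0.482% of all genes. Positive differences numbered 15, where 51.1% of all genes had one. The median was 0.155 (0.003 over all genes). By array, the list deviated on average by 0.09, 0.09 and 0.08 with CM-695 and by -0.11, -0.18 and -0.07 with CM-414. The vehicle arrays (0.05, -0.05 and 0.08) and the SAHA and tadalafil arrays (-0.05, 0.06 and 0.01) lay at the CM-695 level or between the compounds, and the CM-414 arrays were the lowest 3 of the 12. Without CM-695 replicate 3 the list had 4 higher genes and a median of 0.155. In bulk tissue, fewer cells of a type and less RNA per cell cannot be told apart.

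Olig2 was at 9.03, 8.96 and 9.11 with CM-695 and at 8.59, 8.0 and 8.43 with CM-414. The groups did not overlap, and the CM-695 arrays also lay above all vehicle (8.12 to 8.62) and all SAHA and tadalafil arrays (8.50 to 8.73). The difference was 0.70 (standard error 0.16, adjusted p = 0.653), a 1.63-fold higher intensity. Olig1, its neighbour in function, was at 9.08, 8.91 and 8.94 against 8.47, 8.55 and 8.58 (difference 0.44, standard error 0.10, adjusted p = 0.702). Here the order differed, since the vehicle arrays (8.92 to 9.31) were as high as the CM-695 arrays and CM-414 alone was low. C1ql1, a secreted C1q-like protein of precursors, was at 7.19, 7.30 and 7.38 against 6.80, 6.79 and 6.94 (difference 0.45, standard error 0.10, adjusted p = 0.634). Gpr17, a receptor of precursors committed to differentiate, was at 7.76, 7.95 and 7.86 against 7.59, 7.42 and 7.42 (difference 0.38, standard error 0.10, adjusted p = 0.709). The surface markers by which precursors are usually sorted moved little. Pdgfra, the receptor for platelet-derived growth factor, had a difference of 0.05 (95% interval -0.15 to 0.25) and the proteoglycan gene Cspg4 one of 0.14 (-0.08 to 0.37).

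Of 18 measured genes of myelinating oligodendrocytes, 2 were higher with CM-695 and 0 lower, against 0.428% and 0.482% of all genes. Positive differences numbered 17, where 51.1% of all genes had one, and the median was 0.148. Both higher genes encode enzymes of myelin lipids. Ugt8a, which makes galactosylceramide, was at 9.93, 10.14 and 9.47 with CM-695 and at 9.06, 9.11 and 9.27 with CM-414 (difference 0.69, standard error 0.16, adjusted p = 0.687). Fa2h, which hydroxylates the fatty acids of these lipids, was at 9.44, 9.49 and 9.05 against 8.60, 8.54 and 8.80 (difference 0.68, standard error 0.15, adjusted p = 0.636). CM-695 replicate 3 was the lowest of its group for both, and over the whole list the groups overlapped: the mean deviation was 0.21, 0.19 and -0.24 with CM-695 and -0.24, -0.22 and 0.00 with CM-414. Without that array the list median was 0.322, and over the 6 arrays left out in turn it ran from 0.072 (without CM-695 replicate 1) to 0.322. Cnp and Opalin, of the same list, had differences of 0.35 (95% interval 0.06 to 0.65) and 0.53 (-0.04 to 1.09). Mag had one of 0.23 (-0.20 to 0.66, and 0.43 without CM-695 replicate 3). None of them passed the threshold. For the structural myelin proteins Mbp, Mog and Mobp the intervals included 0. Mbp had a difference of 0.15 (95% interval -0.14 to 0.44), Mog one of 0.17 (-0.24 to 0.57, and 0.34 without CM-695 replicate 3) and Mobp one of -0.07 (-0.47 to 0.32).

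Other genes of oligodendrocytes, outside both lists, were among the called genes. Cryab, a small heat shock protein of mature oligodendrocytes and astrocytes, was at 9.93, 9.98 and 9.74 with CM-695 and at 9.17, 9.35 and 9.32 with CM-414 (difference 0.60, standard error 0.15, adjusted p = 0.709). Padi2, an enzyme that citrullinates myelin proteins, differed by 0.61 (standard error 0.17, adjusted p = 0.757), with 8.35 on CM-695 replicate 3 beside 8.90 on both others. Dimmer second probe sets of Cryab and Padi2 had differences of 0.23 and 0.15 that did not pass. Car2, the carbonic anhydrase of oligodendrocytes, and Adamts4, a protease that cleaves proteoglycans, differed by 0.40 and 0.46 (standard errors 0.11 and 0.14, adjusted p = 0.733 and 0.81) and were chosen after their values were seen. For Cryab and Car2 the vehicle arrays (9.53 to 10.01 and 10.14 to 10.41) lay above all CM-414 arrays.

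**Figure D3:**
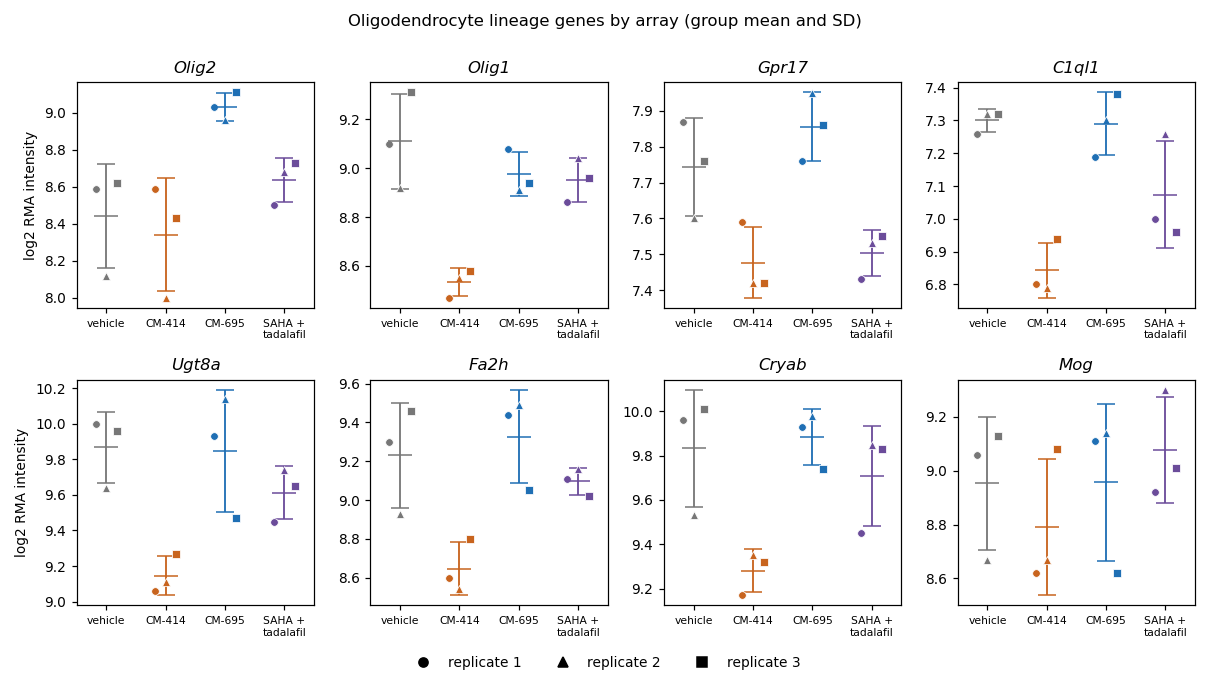
Log2 RMA intensity (vertical axis) of 8 oligodendrocyte lineage genes on the 12 arrays by treatment (horizontal axis); symbols mark the replicate and bars the group mean and SD of 3 arrays. The CM-414 arrays are the lowest 3 for Olig1, C1ql1 and Ugt8a, and CM-695 replicate 3 falls to 8.62 for Mog.

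The unfolded protein response raises chaperones and folding enzymes of the ER through the factors XBP1, ATF6 and ATF4. Of 41 measured genes of this response, 4 were higher with CM-695 and 0 lower, against 0.428% and 0.482% of all genes. The median was 0.071. Positive differences numbered 25, where 51.1% of all genes had one. Sdf2l1, a cofactor of ER chaperones, was at 7.57, 7.66 and 7.82 with CM-695 and at 7.24, 7.08 and 7.19 with CM-414 (difference 0.51, standard error 0.11, adjusted p = 0.62). The transcription factors Xbp1 and Atf4 differed by 0.33 and 0.35 (both with a standard error of 0.09 and an adjusted p of 0.757). Calr, the calcium-binding chaperone calreticulin, was at 10.98, 10.87 and 10.97 against 10.62, 10.58 and 10.70 (difference 0.31, standard error 0.09, adjusted p = 0.803). None of these 4 genes had groups that overlapped, as for nearly all called genes. Without CM-695 replicate 3 the differences of Calr, Xbp1 and Atf4 were 0.30, 0.30 and 0.28, and of the 4 genes Sdf2l1 alone had a p under 0.01, and 1 gene of the list did without CM-414 replicate 2. There were 2 without CM-414 replicate 1, and without CM-695 replicate 1 there were 2 higher genes and 1 lower.

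Hspa5, the ER chaperone known as GRP78 or BiP, was at 9.43, 9.13 and 9.34 with CM-695 and at 9.11, 8.93 and 8.96 with CM-414. The CM-695 arrays lay just above the CM-414 arrays, and above the vehicle (8.75 to 9.08) and SAHA and tadalafil arrays (8.55 to 8.71). The difference was 0.30 (95% interval 0.05 to 0.54, adjusted p = 0.856) and did not pass the threshold, except with the replicate number as a block (the same difference of 0.30) and without CM-695 replicate 2 (0.38). Pdia6, a disulfide isomerase, was at 9.97, 9.77 and 9.80 against 9.52, 9.48 and 9.54 (difference 0.33, 95% interval 0.09 to 0.58). Hsp90b1, the ER form of Hsp90, had a difference of 0.20 (0.02 to 0.38), and Ero1a, an oxidase of the ER, went the other way with -0.26 (-0.49 to -0.02, and -0.15 without CM-695 replicate 3).

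The ER stress element, CCAAT and CCACG with 9 bases between them, was present in the 250 bases before the start of 10 of the 37 list genes with a RefSeq window, and in 37 of 32851 windows overall (0.113%). Of the 8 list genes at an unadjusted p under 0.05 in either direction that have a window, 4 held it: Hspa5, Pdia6, Hsp90b1 and Calr. Their windows (GRCm38.p6) are shown because these 4 genes had differences from 0.20 to 0.33; capitals mark each match, on either strand, and no other motif searched overlapped them.

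Hspa5 (chr2:34771840-34772089, plus strand): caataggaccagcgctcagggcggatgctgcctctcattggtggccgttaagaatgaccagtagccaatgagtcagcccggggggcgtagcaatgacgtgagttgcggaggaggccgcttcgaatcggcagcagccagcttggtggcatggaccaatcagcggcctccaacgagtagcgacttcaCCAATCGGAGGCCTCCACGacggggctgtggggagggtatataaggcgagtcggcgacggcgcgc
Pdia6 (chr12:17266339-17266588, plus strand): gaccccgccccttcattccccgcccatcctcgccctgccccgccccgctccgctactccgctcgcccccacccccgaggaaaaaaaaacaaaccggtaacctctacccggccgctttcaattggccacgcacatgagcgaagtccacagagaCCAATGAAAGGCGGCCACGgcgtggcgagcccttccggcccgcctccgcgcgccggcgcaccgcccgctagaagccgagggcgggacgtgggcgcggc
Hsp90b1 (chr10:86705445-86705694, minus strand): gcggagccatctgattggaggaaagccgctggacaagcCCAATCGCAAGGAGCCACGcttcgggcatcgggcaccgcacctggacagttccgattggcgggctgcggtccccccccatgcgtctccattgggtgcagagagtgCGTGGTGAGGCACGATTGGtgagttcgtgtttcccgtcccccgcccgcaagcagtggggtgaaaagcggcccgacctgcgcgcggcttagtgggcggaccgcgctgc
Calr (chr8:84846932-84847181, minus strand): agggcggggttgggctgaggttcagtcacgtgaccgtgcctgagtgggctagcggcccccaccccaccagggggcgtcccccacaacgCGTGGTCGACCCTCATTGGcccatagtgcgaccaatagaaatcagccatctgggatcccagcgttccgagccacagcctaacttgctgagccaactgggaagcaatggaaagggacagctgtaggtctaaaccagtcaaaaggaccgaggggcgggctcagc

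Canx, the ER lectin calnexin, whose window also holds the element, had a difference of 0.07 (95% interval -0.09 to 0.24). Among 31 genes of the heat shock response in the cytosol, 1 was higher (Cryab) and 0 lower, against 0.428% and 0.482% of all genes. The list median was 0.096. Hspa1a, which encodes Hsp70, was at 8.12, 7.88 and 7.83 against 7.70, 7.53 and 7.75 (difference 0.28, 95% interval 0.04 to 0.52). Its near-identical copy Hspa1b had overlapping groups (8.16, 7.83 and 8.45 against 8.13, 7.87 and 7.81) and a difference of 0.21 (-0.15 to 0.57) that was 0.06 without CM-695 replicate 3, and signal of the 2 copies may be shared between their probe sets. Hsp90aa1, the inducible cytosolic Hsp90, had a difference of -0.01 (-0.18 to 0.16).

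Among 27 measured genes of the ATF4 and serine-folate pathway, which supplies amino acids under stress, 2 were higher (Slc7a11 and Atf4) and 0 lower. Over all genes the shares were 0.428% and 0.482%, and the list median was 0.026. Slc7a11, the cystine and glutamate antiporter that feeds glutathione synthesis, was at 8.87, 8.75 and 8.66 with CM-695 and at 8.09, 7.91 and 8.59 with CM-414. The groups came close, at 8.66 and 8.59, and the difference was 0.56 (standard error 0.16, adjusted p = 0.783). It had an unadjusted p under 0.01 in 12 of 19 other settings, and not without CM-414 replicates 1 or 2 (differences 0.51 and 0.42) or CM-695 replicates 1 or 2 (0.51 and 0.57). Its window, shown for its paired elements, holds the letters TGATGNAA, the core that ATF4 recognises, on both strands (3.45% of all windows hold at least 1 match).

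Slc7a11 (chr3:50443614-50443863, minus strand): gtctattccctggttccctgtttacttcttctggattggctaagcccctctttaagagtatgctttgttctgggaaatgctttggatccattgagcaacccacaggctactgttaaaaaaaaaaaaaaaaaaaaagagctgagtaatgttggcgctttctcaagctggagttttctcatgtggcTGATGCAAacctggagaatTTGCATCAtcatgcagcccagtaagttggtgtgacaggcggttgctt

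Asns and Trib3, both classical ATF4 targets, had differences of -0.01 (95% interval -0.19 to 0.16) and 0.03 (-0.22 to 0.28).

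Tubulin is the building block of microtubules, and α-tubulin is the best known substrate of HDAC6. Of 13 measured genes for HDAC6 substrates and partners, 2 were higher with CM-695 and 0 lower, against 0.428% and 0.482% of all genes. The median was 0.140. Both higher genes encode β-tubulins, and no α-tubulin gene passed. With any 1 of the 6 arrays left out, 0 or 1 gene was called. Tubb3, the neuronal β-tubulin, was at 9.48, 9.47 and 9.52 with CM-695 and at 9.33, 9.07 and 9.11 with CM-414 (difference 0.32, standard error 0.09, adjusted p = 0.803). Tubb5 was at 11.32, 11.41 and 11.25 against 11.04, 11.13 and 11.04 (difference 0.26, standard error 0.08, adjusted p = 0.803). In both, CM-414 was the low group, since the vehicle arrays (9.5 to 9.69 and 11.28 to 11.37) and the SAHA and tadalafil arrays (9.51 to 9.65 and 11.29 to 11.38) reached or exceeded the CM-695 level. The other tubulins measured, Tuba1a, Tuba1b, Tuba1c, Tubb2a and Tubb4a, had differences from 0.14 to 0.18 that did not pass, and without CM-695 replicate 3 those of Tuba1b and Tubb2a were -0.35 and 0.10. Second probe sets of Tuba1c and Tubb5 were at -0.27 and 0.19, and Tubb5 did not pass with the mean of its probe sets. Tubulin genes are near-identical in places, so probe sets can read more than 1 of them. Atat1, the enzyme that acetylates α-tubulin, had a difference of 0.00 (95% interval -0.16 to 0.17).

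**Figure D4:**
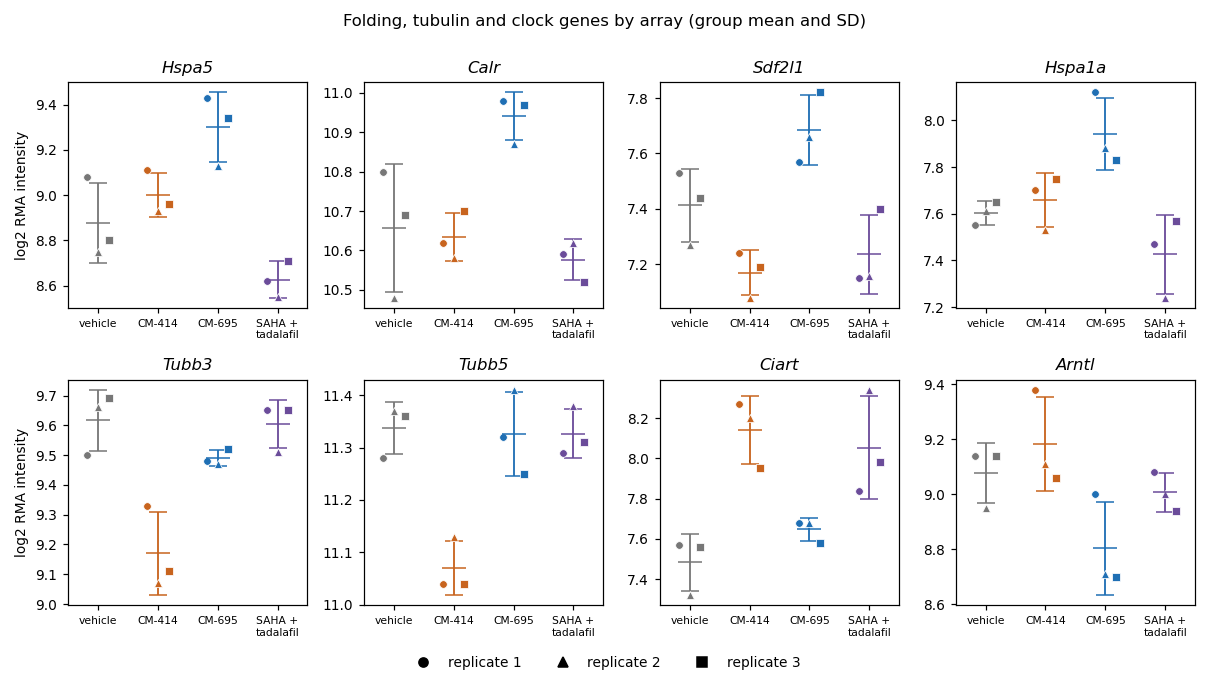
Log2 RMA intensity (vertical axis) of 4 chaperone, 2 tubulin and 2 clock genes on the 12 arrays by treatment (horizontal axis); symbols mark the replicate and bars the group mean and SD of 3 arrays. Ciart lies between 7.58 and 7.68 with CM-695 and between 7.95 and 8.27 with CM-414.

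The circadian clock runs on the activators CLOCK and BMAL1, which bind E-boxes, and on the repressors they induce. Of 18 measured clock and temperature genes, 2 were lower with CM-695 and 0 higher, against 0.482% and 0.428% of all genes. The median was -0.087. Ciart, a repressor of CLOCK and BMAL1, was at 7.68, 7.68 and 7.58 with CM-695 and at 8.27, 8.20 and 7.95 with CM-414. No arrays overlapped, and the vehicle arrays (7.32 to 7.57) were lower still (difference -0.50, standard error 0.13, adjusted p = 0.756). Arntl, the gene of BMAL1, was at 9.0, 8.71 and 8.70 against 9.38, 9.11 and 9.06 (difference -0.38, standard error 0.11, adjusted p = 0.803). Neither passed the threshold without CM-695 replicate 3 (differences -0.46 and -0.33) or without CM-414 replicate 1, Ciart also not without CM-414 replicate 2, and Arntl also not without CM-695 replicate 2. Cirbp, an RNA-binding protein induced by cold, had a difference of -0.60 (95% interval -1.05 to -0.15), which was -0.31 without CM-695 replicate 3. Among the members that did not pass, the repressor Cry1 had a difference of -0.20 without overlap (6.7% of all genes lay wholly below). Per1, Bhlhe40 and Hlf had differences of -0.24, -0.20 and -0.18. Dbp, Nr1d1 and Per3 had differences of 0.12, 0.01 and -0.04. The Ciart window is printed because it holds 3 copies of CACGTG, the canonical E-box, where 6.02% of all windows hold at least 1.

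Ciart (chr3:95882229-95882478, minus strand): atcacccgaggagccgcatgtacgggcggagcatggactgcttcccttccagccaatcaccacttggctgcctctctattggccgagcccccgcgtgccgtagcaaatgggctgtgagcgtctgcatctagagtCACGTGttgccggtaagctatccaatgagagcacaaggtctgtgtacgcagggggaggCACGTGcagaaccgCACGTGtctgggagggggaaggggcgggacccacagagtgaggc

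None of the genes for the compounds' own targets differed at the threshold. Hdac6 was at 8.11, 8.13 and 8.15 with CM-695 and at 8.14, 8.18 and 8.05 with CM-414, a difference of 0.01 (95% interval -0.19 to 0.21). Differences within that interval remain compatible with these values. Hdac2, the class I enzyme most linked to memory genes, was at 8.96, 8.78 and 8.76 against 8.62, 8.62 and 8.66 (difference 0.19, 95% interval 0.01 to 0.38). Hdac1, Hdac3, Hdac8 and Hdac10 had differences between -0.12 and 0.01, with intervals that all include 0 (Hdac10, the lowest, was at 0.01 without CM-695 replicate 3). For the phosphodiesterases the signs were opposite. Pde5a, the PDE5 gene, was at 7.40, 7.23 and 7.16 against 7.0, 7.06 and 7.14 (difference 0.19, 95% interval -0.04 to 0.42). Pde9a was at 8.01, 7.97 and 7.94 against 8.11, 8.20 and 8.10 (difference -0.17, 95% interval -0.35 to 0.02). The groups of neither gene overlapped. Of all genes, 7.47% lay wholly above with CM-695 and 6.7% wholly below, so this alone does not mark either gene. Over 14 cGMP-hydrolysing phosphodiesterases and 16 genes of cGMP signalling, 0 passed the threshold and the medians were -0.015 and 0.009.

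**Figure D5:**
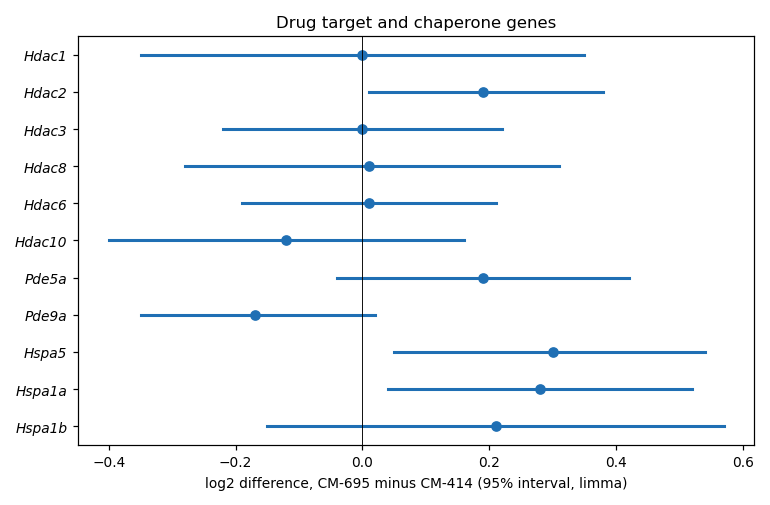
Log2 difference (horizontal axis, CM-695 minus CM-414) with its 95% limma interval for the genes of the compounds' targets and 3 chaperones (vertical axis). The intervals of Hdac2, Hspa5 and Hspa1a lie above 0 and those of the other 8 genes include it.

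Immediate early genes are induced by neuronal activity, many of them through the factor CREB. Of 39 measured immediate early and CREB target genes, 1 passed the threshold (Fos, higher), where 0.428% of all genes were called higher. The median was 0.116. Positive differences numbered 31, where 51.1% of all genes had one. By array, the list deviated on average by 0.05, -0.00 and 0.19 with CM-695 and by -0.02, -0.10 and -0.01 with CM-414, so CM-695 replicate 3 was the highest. Without it, 0 genes passed, 26 differences were positive and the median was 0.096. Fos, a transcription factor that marks recently active neurons, was at 7.11, 6.94 and 7.29 with CM-695 and at 6.79, 6.59 and 6.73 with CM-414 (difference 0.41, standard error 0.13, adjusted p = 0.853). The vehicle arrays (6.83 to 7.30) covered the CM-695 range, and Fos did not pass the threshold without any 1 of CM-414 replicates 1 to 3, CM-695 replicate 1 or CM-695 replicate 3 (0.32 without the last). Egr3 and Fosl2 had differences of 0.35 (95% interval 0.05 to 0.66) and 0.31 (0.05 to 0.58), and Arc, which acts at active synapses, one of 0.28 (-0.10 to 0.65). Egr1 had 0.16 (-0.27 to 0.59). Without CM-695 replicate 3 the differences of Egr3, Arc and Egr1 were 0.23, 0.11 and 0.06.

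No gene of the synaptic lists passed the threshold, which does not show that the compounds act alike. In 16 glutamate receptor subunits of the ionotropic classes, 32 synaptic vesicle and release genes, 27 postsynaptic scaffold genes and 29 channel genes, the medians ran from -0.006 to 0.057. The same held for 27 genes of App processing and amyloid degradation (0 called, median 0.022) and 18 genes of tau and its kinases (0 called, median -0.023). The mouse App probe set differed by -0.04 (95% interval -0.19 to 0.12) and Bace1, the β-secretase, by -0.05 (-0.24 to 0.14), though a second, dimmer Bace1 probe set was at 0.26. Protein degradation lists had medians of 0.018 for 30 constitutive proteasome subunits, -0.042 for 29 ubiquitin-conjugating enzymes and 0.011 for 29 autophagy and lysosome genes, with 0 genes called. At an unadjusted p under 0.05 these 9 lists together held Psenen, Slc32a1, Shank2, Cacna1i, Cdk5r1 and Mark3. The synaptic lists outside these 9 had medians of 0.118 for 6 metabotropic glutamate receptors and 0.026 for 11 GABA receptor subunits. Those of 30 monoamine and acetylcholine receptors and 21 neuropeptides were 0.067 and 0.065.

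Among glia, reactive astrocyte genes included 2 lower members, Lcn2 and Fbln5, of 20 measured (0.482% of all genes were called lower). The list median was -0.081. It was -0.038, with 1 gene lower, without CM-695 replicate 3, and -0.066, also with 1, without CM-414 replicate 3. Gfap, the intermediate filament of astrocytes, was at 10.29, 10.39 and 9.73 with CM-695 and at 10.60, 10.30 and 10.60 with CM-414 (difference -0.36, 95% interval -0.77 to 0.04, and -0.16 without CM-695 replicate 3). Serpina3n, an acute-phase inhibitor, had a difference of -0.55 that was -0.31 without that array, and Osmr, the oncostatin M receptor, one of -0.65 that was -0.40. Gjb6, connexin 30 of astrocyte gap junctions, was at 6.87, 6.63 and 6.54 against 7.19, 7.05 and 7.16 (difference -0.46, standard error 0.12, adjusted p = 0.757), and it did not pass without CM-695 replicate 3 (-0.38). Of 29 plaque-associated microglial genes 0 were called and the median was -0.016, with a mean deviation of -0.29 on CM-695 replicate 3 beside 0.02 and 0.01 on the other CM-695 arrays. In dentate granule cells and neurogenesis, 0 of 24 genes were called and 19 differences were positive, against 51.1% over all genes (list median 0.133). The lists not described had medians from -0.035 (cholesterol synthesis) to 0.139 (homeostatic microglia), and their called genes were Gjb6 among astrocyte markers, H2-Q4 among MHC class I genes and Lxn among subiculum and entorhinal markers.

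A few further genes stood out by size. Olfr1411, annotated as an olfactory receptor, had the smallest p of all genes. It was at 7.42, 7.44 and 7.42 with CM-695, while the CM-414 arrays (7.85, 7.90 and 8.04) and vehicle arrays (7.90 to 8.0) were together higher (difference -0.51, standard error 0.08, adjusted p = 0.463). Fat3, an atypical cadherin of neurons, was low in CM-414 alone, at 8.05, 7.92 and 7.87 against 8.41, 8.46 and 8.46 (difference 0.50, standard error 0.09, adjusted p = 0.477). Zkscan16, a zinc finger protein, was high in CM-414, at 9.75, 9.61 and 9.52 against 9.04, 9.16 and 8.98 (difference -0.57, standard error 0.10, adjusted p = 0.477). Tet2, which oxidises methylated cytosine, was at 8.59, 8.62 and 8.54 with CM-695 and at 8.93, 9.14 and 8.96 with CM-414 (difference -0.43, standard error 0.09, adjusted p = 0.62). Pms2, Blm and Rad18, which act in DNA repair, differed by -0.55, -0.47 and -0.42. These 7 genes were chosen after their values were seen. By the rule for named genes, the remaining rises were Rpl17 (0.61), a ribosomal protein gene, Hhip (0.56), an inhibitor of hedgehog signals, Pltp (0.51), a phospholipid carrier, and Lxn (0.26), a carboxypeptidase inhibitor. The dim ones were Tas2r130 (0.59), Spag17 (0.45) and Olfr114 (0.44). The remaining falls were H2-Q4 (-0.49), an MHC class I gene whose second probe set was at 0.11, and the dim Ms4a6b (-0.58), Olfr859 (-0.57) and Fas (-0.43). Spag17 also had a second probe set, at -0.04. Without CM-695 replicate 3, Pltp, Spag17, Olfr114, Blm and Rad18 did not pass, with differences of 0.40, 0.37, 0.35, -0.39 and -0.44. Rad18 did not pass without any 1 of the 6 arrays, with differences from -0.44 to -0.41.

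Set beside vehicle, CM-414 was more often the group farther from it, among the called genes and over all genes. The vehicle mean lay nearer to the CM-695 mean for 55 of the 86 higher and 70 of the 97 lower genes, and for 56.8% of all genes. The SAHA and tadalafil mean lay nearer to CM-695 for 38 of the 86 and 52 of the 97. For that mean the share over all genes was not taken, so its counts have no background to be read against. All these counts are positions of means with 3 arrays each, and no test was run on them.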

How the data were processed

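Affymetrix Mouse Gene 2.0 ST arrays were used for hippocampal RNA, with 3 arrays per group that the labels call biological replicas. The deposited values are log2 intensities that the authors background-corrected and normalized with RMA (version not given in the sources used here). Groups came from the sample titles. From these values, CM-695 minus CM-414 was fitted across all 12 arrays as 4 group means and tested two-sided by empirical Bayes (limma 3.58.1, R 4.3.3), with Benjamini-Hochberg adjustment over 35326 probe sets. The test was checked on simulated data. An exact permutation test of 3 against 3 arrays cannot go below p = 0.1, so none was used. Standard errors and 95% intervals are limma's.

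Genes were named from the platform annotation (23521 probe sets with 1 symbol, 1820 with several, 16004 not listed); no probe set coordinates are given, since the sources used here name no build for them. A gene is represented by its brightest probe set over the 12 arrays. Named genes were the target and chaperone genes, the 10 largest rises and falls with a mean log2 value of at least 6 over the 6 arrays (systematic symbols left out), an unadjusted p under 0.01 and no overlap, the 3 largest of each below that mean, up to 4 called members of each list, and others said to be chosen after their values were seen; the latter include the uncalled list members given with intervals. The comparison, the 47 lists (1013 genes, 95 without a probe set of their own) and the rule were chosen with earlier results of these data known, so lists are described by counts and medians and carry no test. A list's mean deviation on an array is the mean over its genes of the log2 value minus the gene's mean over the 12 arrays. Promoter windows, the 250 bases before each start, came from RefSeq for GRCm38.p6 and were searched on both strands with 6 motifs, of which those for the heat shock element (GAA, TTC and GAA, 2 bases apart, 0.466% of windows) and the cAMP response element (TGACGTCA, 1.55%) matched 0 list genes at an unadjusted p under 0.05. Plots used matplotlib 3.10.9. Alternatives changed the arrays in the fit, the filter, the scaling, the variance prior, the array weights, the replicate block and the gene-level rule, or left arrays out.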

Additional observations from a re-analysis of the deposited data

How the results depend on the processing

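The count at an adjusted limma p under 0.05 was 0 in all 19 settings, the fit reported included, and the smallest adjusted p in any of them was 0.155. The 393 probe sets at an unadjusted p under 0.01 became 700 with array weights, 371 of them shared with the 393, and stayed within 1.5 times in the other settings. With the replicate block there were 377, of which 288 were shared. Leaving out 1 array in turn gave 268 to 516, with 191 shared without CM-695 replicate 3 and 176 without CM-414 replicate 1. With 6 arrays alone there were 544 (257 shared), and without the 3 arrays that stand apart 528 (201 shared). CM-695 and CM-414 arrays with the same number deviated together little (r = 0.11, -0.03 and -0.01 for numbers 1, 2 and 3). CM-695 replicate 1 correlated best with its own number, and replicates 2 and 3 did not. With 3 arrays a group, these correlations cannot decide whether arrays of 1 number share a batch. Hspa5 passed the threshold with the replicate block (difference 0.30), and over the 6 arrays left out in turn its difference ran from 0.23 to 0.38. The median of the HDAC6 substrates and partners ran from 0.059 to 0.143 in the same way. Of 55 named genes called, 23 had a p under 0.01 in every other setting that measured them and 0 changed direction. The share of the called probe sets that were higher, 36.9%, was 23.4% without CM-695 replicate 2 (103 higher, 337 lower), 48.9% among probe sets listed with a gene, and 46.6% without the 3 arrays that stand apart.

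With 3 arrays a group, the median 95% interval reaches 0.28 to either side on the log2 scale, and smaller differences passed the threshold only for probe sets with a smaller spread. Signals of neighbouring tissue differ between single arrays, and their part in the differences was not tested. Compound and dose cannot be told apart.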
